A study of Mus musculus with 6 samples.

Results

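Chemokines and their receptors were examined in the abdominal fat of mice after a bypass of the upper small intestine. They were the 56 genes whose symbol in the scanner files begins with Ccl, Cxcl, Cx3cl, Xcl, Ccr, Cxcr, Cx3cr or Ackr followed by a number, of 18389 genes named by symbol on the array. They comprised 35 ligands, 17 signalling receptors and 4 atypical receptors, and were represented by 70 probes, of which the one with the highest mean signal stood for its gene. All mice were C57BL/6. A high-fat diet began at an age of 6 weeks and was given for 12 weeks, by which point the animals were diabetic. They then underwent either duodenal-jejunal bypass (DJB), with a biliopancreatic limb of 5 cm and a Roux limb of 4 cm, or a sham operation (Sham). In the sham operation the abdomen was opened and the intestine transected in the same way, and the cut ends were rejoined in their original position. Each group was measured on 3 arrays. The labels give neither the fat depot, nor the time after surgery, nor whether each array came from a separate animal, so the spread on which the p-values rest may be technical.

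Chemokines are small secreted proteins that direct the movement of leukocytes through receptors coupled to inhibitory G proteins. CC chemokines act mainly on monocytes, eosinophils and lymphocytes, while CXC chemokines include the neutrophil attractants and the interferon-inducible attractants of T cells. Atypical receptors bind chemokines and remove them without G protein signalling. In obese adipose tissue the family is best known for recruiting monocytes through Ccl2 and its receptor Ccr2.

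Of the 56 genes, 48 had a probe flagged well above background on 3 or more of the 6 arrays and were tested with limma, and 8 genes changed between DJB and Sham at an adjusted p of 0.05. The genes that rose were Ccl6, Ccl9, Ccl3, Ccl2 and Ccr1, and those that fell were Ccl24, Xcl1 and Ackr4. The first 3 named are ligands of the receptor encoded by Ccr1. The probes of these 8 genes are shown because every value of the changed genes rests on them. The first 30 of the 60 bases of each probe, 5′ to 3′ as the authors' files give them, were as follows, with no base singled out.
Ccl6: aatgtgtctggttctgatacaagcttaagc
Ccl9: caactaggatgaaataaattctgccttagc
Ccl3: catgaactgacaaatgtacaatagatgctt
Ccl2: tgtaggagtgaccagtgtgacagtgaacta
Ccr1: agtataagatgttatgtcaaaaaattaaat
Ccl24: ttaggggatgtgtttattctgtgagaacct
Xcl1: tcaccaaacgaggactaaaaatttgtgctg
Ackr4: atttgtgttacaccgagacccaaccatcaa
By the coordinates in the files, on mouse build mm9, the Ccl6 probe lies at chr11:83401997-83402056 on the minus strand, and the Ccl9 probe at chr11:83388223-83388282 on the minus strand. The Ccl3 probe lies at chr11:83461358-83461417 on the minus strand, and the Ccl2 probe at chr11:81850650-81850709 on the plus strand. The Ccr1 probe lies at chr9:123877790-123877849 on the minus strand, and the Ackr4 probe at chr9:104000864-104000923 on the minus strand. The Ccl24 probe lies at chr5:136046485-136046544 on the minus strand, and the Xcl1 probe at chr1:166862020-166862079 on the minus strand. The files do not say which exon or untranslated region a probe covers.

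Values below are log2 signals relative to the 75th percentile of the same array, so that 0 is the level of that percentile. Differences are DJB minus Sham on this scale, given with a standard error (SE), for n = 3 arrays per group, and probes of different genes were not compared in level. Adjusted p-values are from limma with Benjamini-Hochberg adjustment over 99431 tested probes. An exact permutation test of 3 against 3 arrays cannot give a p below 0.1. The 75th percentile of signal was 175.8 to 183.7 on the Sham arrays and 132 to 165.3 on the DJB arrays, and 62.58% to 68.8% of probes were well above background. All 7 adipocyte markers examined were well above background on every array, but their summed signal was lower after DJB, at 1191 to 2209 times the 75th percentile against 2375 to 2704 in Sham. The sum for 5 mesothelial markers was 18.5 to 48.6 against 84.6 to 87.2. In bulk tissue, fewer cells of a type and less RNA per cell cannot be told apart.

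Among all 15703 named genes tested, 6.97% were called in either direction, 2.16% higher and 4.81% lower in DJB. Among the tested chemokine and receptor genes the corresponding counts were 5 higher and 3 lower of 48, or 10.4% and 6.25%. The 3 DJB arrays all lay above the 3 Sham arrays for 9 of the 48 genes, against 25.9% of all named genes, and all below for 12, against 19.5%. The median difference was -0.24, with 21 positive and 27 negative values and a range from -2.78 to 2.36, beside a median of 0.05 over all named genes. At an unadjusted p under 0.05 there were 20 of the 48 genes, beside 5584 of the 15703. The calls lay close to the threshold: no chemokine or receptor was called when the slide that held each array was added as a block, with the 8 adjusted p-values between 0.05003 and 0.0798 in limma. The direction of each called gene was the same within slide 1, which held 2 arrays of each group, and within slide 2, which held 1 of each.

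**Figure D1:**
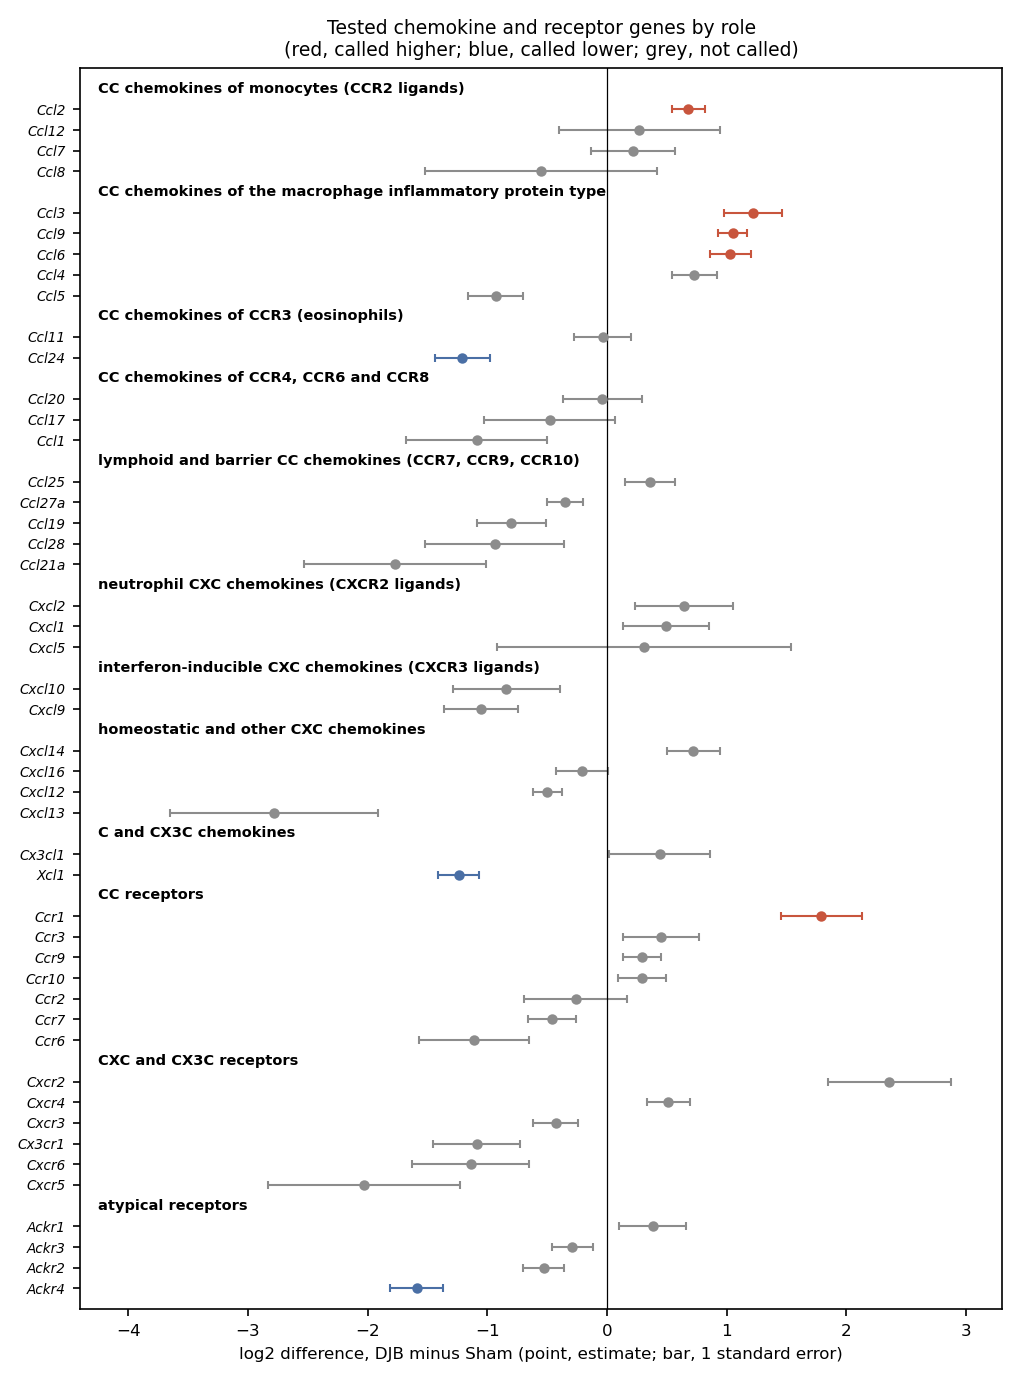
Differences of the tested chemokine and receptor genes reported here, DJB minus Sham in log2 units (horizontal axis), grouped by role, with points for the limma estimate and bars for 1 SE. The 5 red points (called higher) include 3 of the 5 CC chemokines of the macrophage inflammatory protein type, and the 3 blue points (called lower) lie in 3 different role groups.

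The CC chemokines of the macrophage inflammatory protein type, which attract monocytes, macrophages and T cells, contained most of the rises. Of 5 such ligands tested, Ccl5 included, Ccl6, Ccl9 and Ccl3 rose, none fell, and the median difference was 1.03. Ccl9 (macrophage inflammatory protein 1 gamma), a mouse ligand of CCR1, was at 7.63, 7.81 and 7.82 on Sham arrays 1 to 3 and at 8.95, 8.76 and 8.71 on DJB arrays 1 to 3. The groups were separated by more than the spread within either. The difference was 1.05 (SE 0.12, n = 3 per group, adjusted p = 0.0219 in limma), or 2.08-fold, with 1.13 within slide 1 and 0.90 within slide 2. Its neighbour on the chromosome, Ccl6, another mouse ligand of CCR1, gave 7.72, 8.24 and 8.14 in Sham and 8.92, 9.21 and 9.07 in DJB. Every DJB array was above every Sham array, and Sham array 1 was the lowest. The Ccl6 difference was 1.03 (SE 0.17, adjusted p = 0.0371 in limma), or 2.04-fold, with 1.13 within slide 1 and 0.82 within slide 2.

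Ccl3 (macrophage inflammatory protein 1 alpha), which binds CCR1, was at 2.09, 2.64 and 2.80 in Sham and at 3.97, 3.82 and 3.39 in DJB. The groups did not overlap, and DJB array 3 came closest to the Sham arrays. The difference was 1.22 (SE 0.24, adjusted p = 0.0472 in limma), or 2.32-fold, with 1.45 within slide 1 and 0.75 within slide 2. Ccl4 (macrophage inflammatory protein 1 beta) showed a difference of 0.73 (SE 0.19, adjusted p = 0.0721) without overlap. Ccl5 (RANTES), a chemokine made largely by T cells that also binds CCR1, was at 5.24, 5.38 and 4.73 in Sham and at 4.03, 4.54 and 3.99 in DJB. Its groups did not overlap either, but in the opposite direction, with a difference of -0.93 (SE 0.23, adjusted p = 0.0708).

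Ccr1, the receptor of the 3 ligands that rose, was at -4.66, -3.72 and -4.75 in Sham and at -2.87, -2.13 and -2.77 in DJB. All 3 DJB arrays were above all 3 Sham arrays, and array 2 was the highest in each group. The difference was 1.79 (SE 0.34, adjusted p = 0.0442 in limma), or 3.45-fold, with 2.21 within slide 1 and 0.94 within slide 2. With normexp background correction, which here added an offset of 50 to each signal, it was 0.54 (adjusted p = 0.0245 in limma). The Sham values were near the lowest signals called above background on these arrays, although each Sham array was flagged as well above it.

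Ccl2 (monocyte chemoattractant protein 1), the ligand that releases CCR2-bearing monocytes from bone marrow and draws them into tissue, was at 5.64, 5.86 and 5.84 in Sham and at 6.41, 6.65 and 6.31 in DJB. The groups did not overlap. The Ccl2 difference was 0.68 (SE 0.14, adjusted p = 0.0488 in limma), or 1.6-fold, and its call was lost under quantile normalization and in the authors' value table (0.56, adjusted p = 0.0572 in each). The other 3 CCR2 ligands did not pass the test. Ccl7 differed by 0.22 (SE 0.35), Ccl12 by 0.27 (SE 0.67) and Ccl8 by -0.55 (SE 0.97). The median of the 4 ligands was 0.25.

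Ccl8, Ccl12 and Ccl7 shared an order with Ccr2, in that DJB array 1 was the lowest and DJB array 2 the highest of all 6 arrays. Ccl8 was at 5.93, 6.66 and 5.63 in Sham and at 3.40, 7.41 and 5.77 in DJB, a range of 4.01 among the DJB arrays against 1.03 among the Sham arrays. Ccr2, the receptor of classical monocytes, was at 1.87, 2.00 and 1.38 in Sham and at 0.56, 2.20 and 1.71 in DJB. Its difference of -0.26 (SE 0.43, adjusted p = 0.721) became 0.20 (adjusted p = 0.676 in limma) without DJB array 1. Ccl2 did not follow this pattern, since its 3 DJB values lay within 0.34 of each other. DJB array 1 was the lowest of the 6 arrays for 19 of the 48 tested genes, and DJB array 2 was the highest for 15. The pattern was not particular to Ccr2 and its ligands. Ccl11, Ccl17 and Cxcl5, which belong to other role groups, had the same lowest and highest arrays.

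**Figure D2:**
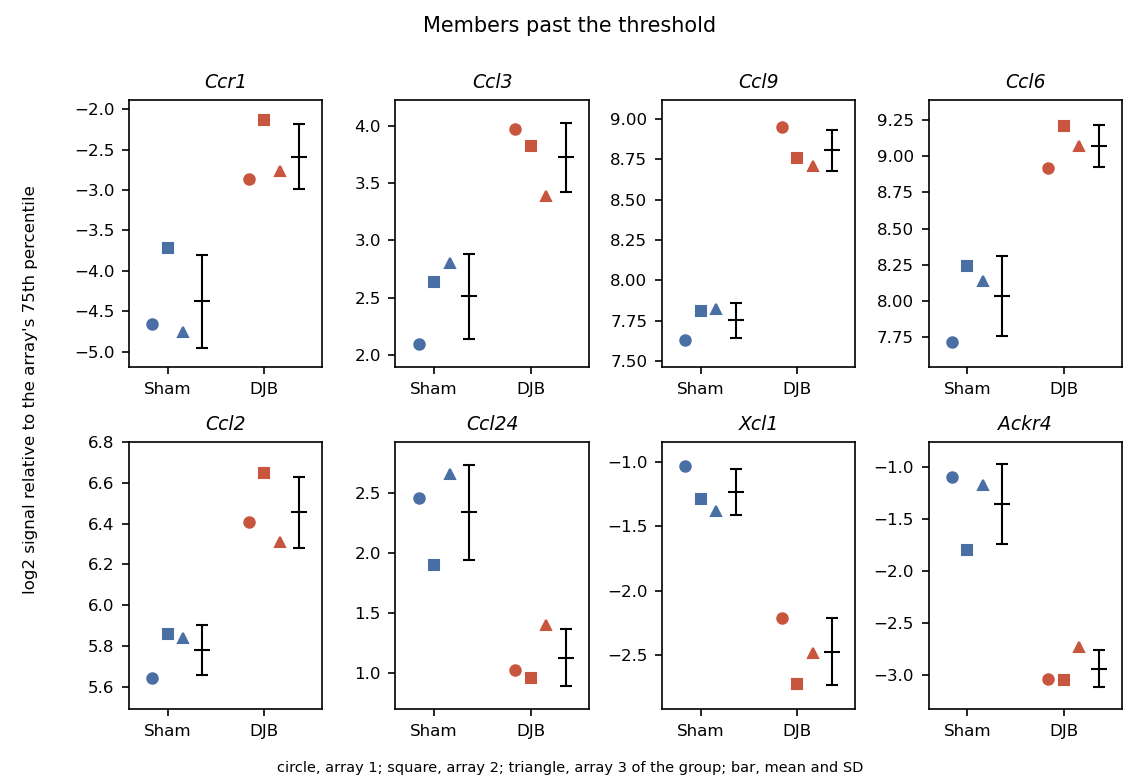
Log2 signal relative to the array's 75th percentile (vertical axis, scaled separately for each gene) of the 8 called genes on 3 Sham (blue) and 3 DJB (red) arrays, with bars for the mean and SD. The groups do not overlap in any panel, and Ccl9 has the narrowest spread relative to its difference, at 1.05 with SE 0.12.

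Markers of monocytes and macrophages moved with these ligands and with Ccr1. Of 9 such markers, Cd68, Lyz2 and Itgam rose, none fell, and all 9 differences were positive, with a median of 0.85. Their summed signal was 605 to 820 times the 75th percentile in Sham and 988 to 1111 in DJB, without overlap. Itgam, the integrin subunit CD11b of myeloid cells, differed by 1.32 (SE 0.18, adjusted p = 0.0283), while Adgre1, a macrophage surface receptor gene, differed by 0.34 (SE 0.23, adjusted p = 0.374). The part of these cells in the chemokine differences was not tested.

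Ccl5, Ccl9, Ccl6, Ccl3 and Ccl4 are neighbours, with probes within 138.8 kb at chr11:83339296-83478111 on mm9, and 3 of the 5 rose, with a median of 1.03. In a second group on the same chromosome, Ccl2, Ccl7, Ccl11, Ccl12, Ccl8 and Ccl1 within 139.7 kb, only Ccl2 was called, and the median was 0.09. The 250 bases before the RefSeq transcript starts of the 3 rising neighbours are shown because these genes moved together, taken from the GRCm38.p6 promoter table, where Ccl9 lies at chr11:83578637-83578886, Ccl6 at chr11:83593088-83593337 and Ccl3 at chr11:83649379-83649628, all on the minus strand. Capitals mark the letters TATAAA, the TATA box, searched on both strands.
Ccl9: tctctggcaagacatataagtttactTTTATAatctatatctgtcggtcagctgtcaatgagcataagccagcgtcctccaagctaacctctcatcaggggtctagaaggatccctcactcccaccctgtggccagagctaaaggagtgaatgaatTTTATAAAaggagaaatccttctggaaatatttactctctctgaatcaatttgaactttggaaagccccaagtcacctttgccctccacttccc
Ccl6: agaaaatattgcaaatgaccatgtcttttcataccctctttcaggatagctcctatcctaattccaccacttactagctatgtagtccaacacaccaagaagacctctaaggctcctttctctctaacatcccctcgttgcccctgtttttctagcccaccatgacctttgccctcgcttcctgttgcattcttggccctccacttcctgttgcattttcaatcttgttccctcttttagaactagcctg
Ccl3: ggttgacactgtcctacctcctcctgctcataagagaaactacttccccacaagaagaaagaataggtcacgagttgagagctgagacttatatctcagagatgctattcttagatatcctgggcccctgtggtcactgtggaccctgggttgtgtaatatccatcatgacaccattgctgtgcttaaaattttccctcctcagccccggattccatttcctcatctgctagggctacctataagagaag
Only the Ccl9 window of the 3 held these letters, with 3 matches, of which 2 overlap each other on opposite strands. TATAAA occurred in 12.4% of 32851 promoter windows of this length. Promoters were listed for 42 of the 56 genes, in 46 windows, of which 12 held TATAAA. A match describes the letters and does not show a working site.

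The CXC ligands of CXCR2, which attract neutrophils, did not pass the test. Cxcl1, Cxcl2 and Cxcl5 differed by 0.49 (SE 0.36), 0.64 (SE 0.41) and 0.31 (SE 1.23), with the highest value of each on DJB array 2. None of the 3 was called in limma, and none had an unadjusted p under 0.05. The receptor gene Cxcr2 was at -5.15, -4.27 and -5.06 in Sham and at -3.44, -2.47 and -1.51 in DJB. It was well above background on 1 Sham array and 3 DJB arrays, so it entered the test through the group in which it was higher, and the groups did not overlap. Its difference of 2.36 (SE 0.51, adjusted p = 0.0539) missed the threshold and rests on Sham signals mostly not above background. With normexp background correction it was 0.64 (adjusted p = 0.0611 in limma), and a second Cxcr2 probe differed by 1.90 (SE 0.61, adjusted p = 0.112).

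Neutrophil markers were examined beside Cxcr2. Of 9 such markers 6 were tested, with 5 positive differences and 1 negative, and S100a9 alone was called, at 1.76, 1.18 and 1.46 in Sham and 3.67, 3.94 and 5.36 in DJB (difference 2.86, SE 0.45, adjusted p = 0.0339). Its partner S100a8 differed by -0.15 (SE 0.34, adjusted p = 0.799). The summed signal of the 6, to which S100a9 contributed much in DJB, was 11.5 to 12.3 in Sham and 18.6 to 56.4 in DJB, highest on DJB array 3, as was Cxcr2. Taken singly, S100a9, S100a8 and Mpo were highest on DJB array 3, but Retnlg, Mmp8 and Csf3r on DJB array 2. The granule genes Elane, Camp and Ngp were each above background on 2 or fewer arrays. The part of neutrophils in the Cxcr2 values was not tested.

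Ccl24 (eotaxin 2), a ligand of the eosinophil receptor CCR3 that alternatively activated macrophages also make, fell. It was at 2.46, 1.90 and 2.66 in Sham and at 1.03, 0.96 and 1.40 in DJB, without overlap. The difference was -1.21 (SE 0.23, adjusted p = 0.0455 in limma), with -1.57 within slide 1 and -0.50 within slide 2. A second probe named Ccl24 gave -0.95 (adjusted p = 0.0694), and the call was also lost with scaling to the median (-1.11, adjusted p = 0.0565). Ccl11 (eotaxin 1) differed by -0.04 (SE 0.24) and the receptor Ccr3 by 0.45 (SE 0.32), and both overlapped. Of 5 eosinophil markers, Epx was above background on no array, and none of the 4 tested was called in limma. The 4 went in both directions. Siglecf differed by 0.73 (SE 0.19, adjusted p = 0.0724) and Ear6 by 0.13, while Prg2 differed by -1.84 (SE 0.48, adjusted p = 0.077) and Il5ra by -0.85. An unadjusted p under 0.05 was found for 2 of them, beside 5584 of all 15703 named genes. Their summed signal was 1.15 to 1.44 in Sham and 0.752 to 1.15 in DJB. The part of eosinophils in the Ccl24 difference was not tested.

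Xcl1 (lymphotactin), which natural killer cells and CD8 T cells secrete to attract cross-presenting dendritic cells, fell too. It was at -1.03, -1.29 and -1.38 in Sham and at -2.21, -2.73 and -2.49 in DJB. The groups did not overlap. The Xcl1 difference was -1.24 (SE 0.17, adjusted p = 0.0284 in limma), or 2.36-fold lower in DJB, with -1.26 within slide 1 and -1.19 within slide 2. With normexp background correction it was -0.46 (adjusted p = 0.0242 in limma). Xcr1, the receptor of Xcl1, was at 0.47, 0.38 and 0.65 in Sham and at 0.74, 0.53 and 0.57 in DJB, with a difference of 0.11 (SE 0.13, adjusted p = 0.61). Clec9a, a marker of the dendritic cells that carry that receptor, fell by 0.92 (SE 0.18, adjusted p = 0.0456), as did the class II genes H2-Aa and H2-Ab1. The other 4 of 7 dendritic cell markers were not called, with differences of 0.63 for Itgax, -0.07 for Flt3, -0.20 for Zbtb46 and -0.99 for Cd209a. The summed signal of the 7 overlapped, at 396 to 461 in Sham and 283 to 455 in DJB. The part of dendritic cells in the Xcl1 values was not tested.

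The interferon-inducible ligands of CXCR3, which attract activated T cells, had negative differences. Cxcl9 was at 3.03, 2.66 and 2.71 in Sham and at 1.11, 2.33 and 1.80 in DJB, without overlap, and differed by -1.05 (SE 0.31, adjusted p = 0.0959). Cxcl10 differed by -0.84 (SE 0.45, adjusted p = 0.276) and overlapped, as did the receptor Cxcr3, with a difference of -0.43 (SE 0.19, adjusted p = 0.194). Neither ligand was called in limma, and 1 of the 2 had an unadjusted p under 0.05, beside 5584 of all 15703 named genes. Cxcr6, a receptor of tissue T cells and natural killer T cells, was at 0.75, 1.10 and 0.50 in Sham and at -1.51, 0.30 and 0.14 in DJB. The groups did not overlap, and DJB array 1 lay far below the other 5, with a difference of -1.14 (SE 0.49, adjusted p = 0.19). A further Cxcr6 probe, of the set described below, gave -0.99 (SE 0.45, adjusted p = 0.211 in limma) with overlap. Cxcl16, the ligand of CXCR6, differed by -0.21 (SE 0.22).

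Cx3cr1, the fractalkine receptor of patrolling monocytes and resident macrophages, was at -0.10, -0.39 and -0.72 in Sham and at -2.27, -0.99 and -1.21 in DJB. It did not overlap between the groups and differed by -1.09 (SE 0.36, adjusted p = 0.119), while a second probe gave -0.55 (SE 0.25) and normexp background correction -0.63 (adjusted p = 0.0727 in limma). A further Cx3cr1 probe, of the set described below, gave -1.33 (SE 0.36, adjusted p = 0.0828) without overlap. Cx3cl1, which encodes fractalkine, differed by 0.44 (SE 0.42) with overlap. Of 10 markers of T and natural killer cells, examined beside Xcl1, Ccl5, Cxcl9 and Cxcr6, none was called in limma. Of these markers 7 had an unadjusted p under 0.05 and 9 were negative, beside 5584 and 7066 of all 15703 named genes. Their summed signals overlapped, at 9.99 to 17.7 in Sham and 6.6 to 10.5 in DJB. DJB array 1 had the lowest of these sums. The Xcl1 values of the DJB arrays spanned only 0.51, with array 1 the highest. The part of these cells in the chemokine values was not tested.

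Ackr4, the scavenging receptor that removes CCL19, CCL21 and CCL25, fell. It was at -1.09, -1.80 and -1.17 in Sham and at -3.04, -3.05 and -2.73 in DJB, well apart. The difference was -1.59 (SE 0.22, adjusted p = 0.0283 in limma), with -1.91 within slide 1 and -0.93 within slide 2. With normexp background correction it was -0.49 (adjusted p = 0.0458 in limma). Of its ligands, Ccl19 differed by -0.80 (SE 0.29, adjusted p = 0.141), Ccl21a by -1.77 (SE 0.76, adjusted p = 0.19) and Ccl25 by 0.36 (SE 0.21, adjusted p = 0.318). Ccr7, the receptor through which CCL19 and CCL21 guide dendritic cells and T cells to lymph nodes, differed by -0.46 (SE 0.20, adjusted p = 0.195). The other 3 atypical receptors did not pass the test, with differences of 0.38 for Ackr1, the promiscuous receptor of venules, -0.29 for Ackr3, which removes CXCL12, and -0.53 for Ackr2, which removes inflammatory CC chemokines.

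Several lymphoid genes varied widely between arrays of the same group. Of the 56 genes, Ccl8, Cxcr5 and Ccl28 were chosen to be given with their array values after those values were seen. Xcr1, Ms4a1, Epcam, Vil1 and Fabp2, which are not among the 56, were also given with array values outside the rule for named genes. Cxcl13, the attractant that organises B cell follicles, was at 1.94, 1.91 and 1.09 in Sham and at -2.83, -1.34 and 0.77 in DJB. The groups did not overlap, but DJB array 3 lay just below the lowest Sham array, and the difference of -2.78 (SE 0.87) had an adjusted p of 0.107, which was 0.0375 in limma without DJB array 3. Its receptor gene Cxcr5 was at -0.81, -0.11 and -2.31 in Sham and at -3.98, -3.72 and -1.62 in DJB, so DJB array 3 was above Sham array 3. Ccl21a was at 6.82, 6.84 and 4.66 in Sham and at 3.78, 3.68 and 5.55 in DJB, with the same overlap. The Ccl21a probe also matches predicted near-identical copies of the gene in the RefSeq table and cannot be assigned to 1 of them.

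Ccr6 and Cxcr5 ranked the 6 arrays in exactly the same order as the summed signal of 7 B cell markers, from Sham array 2 through Sham array 1, DJB array 3, Sham array 3 and DJB array 2 down to DJB array 1. Ccr6 is the CCL20 receptor of B cells and some T helper cells, and it differed by -1.11 (SE 0.46, adjusted p = 0.179). Ccl1, a ligand of CCR8, was above background on 3 Sham arrays and 1 DJB array and differed by -1.09 (SE 0.59, adjusted p = 0.274). The summed B cell signal was 5.31 to 21.3 in Sham and 1.81 to 7.05 in DJB, with overlap, and the B cell gene Ms4a1, which encodes CD20, was at 1.46, 2.16 and -0.47 in Sham and -2.85, -2.70 and 0.33 in DJB. None of the 7 markers was called in limma, and 5 had an unadjusted p under 0.05, beside 5584 of all 15703 named genes. Of 5 lymphatic endothelial markers, Pdpn rose by 0.84 (adjusted p = 0.0406) and Prox1 fell by 1.16 (adjusted p = 0.0378), and their summed signal was 9.87 to 21.1 in Sham and 8.55 to 14.3 in DJB. The part of lymphoid tissue in these values was not tested.

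**Figure D3:**
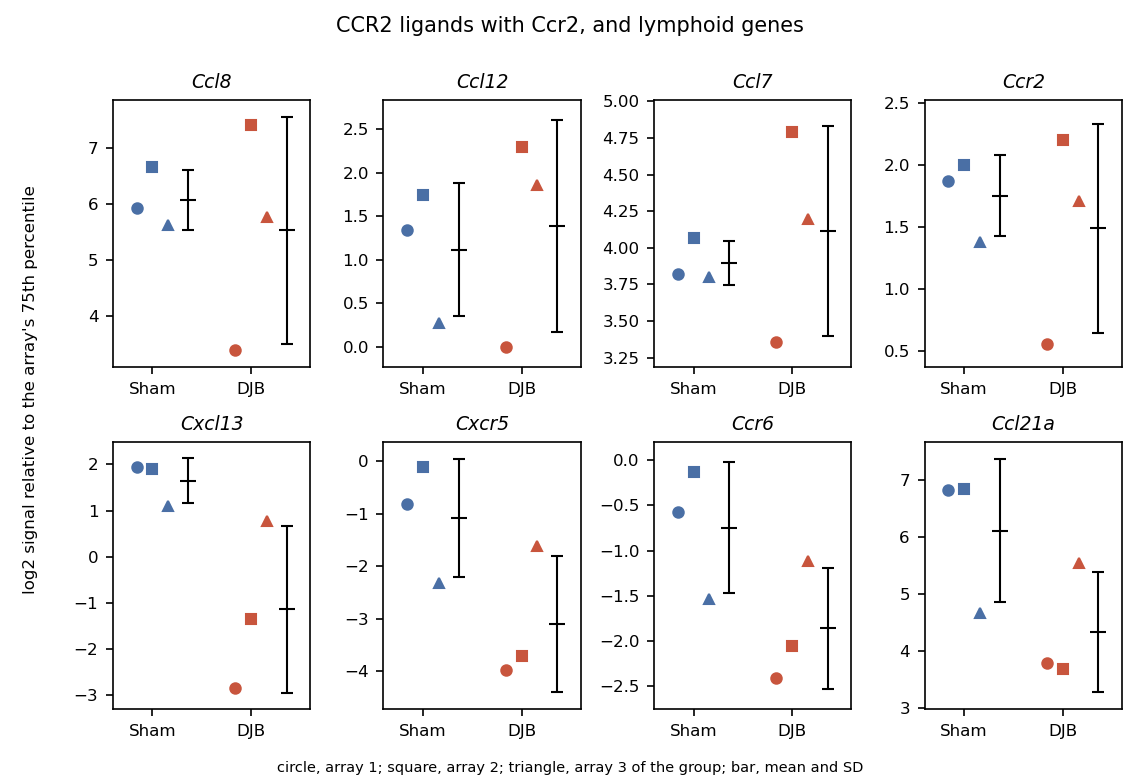
Log2 signal relative to the array's 75th percentile (vertical axis, scaled separately for each gene) of 8 genes that varied within groups, on 3 Sham (blue) and 3 DJB (red) arrays, with bars for the mean and SD. In the upper row DJB array 1 (circle) is the lowest and DJB array 2 (square) the highest of the 6 arrays, and in the lower row DJB array 3 (triangle) is the highest DJB array.

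Ccl28, a chemokine of mucosal epithelia, was at -1.32, -1.85 and -3.55 in Sham and at -2.93, -2.96 and -3.64 in DJB. Sham arrays 1 and 2 stood above the other 4, and the difference was -0.94 (SE 0.58, adjusted p = 0.333). The epithelial gene Epcam was at 1.14 and 0.52 on the same Sham arrays and between -7.07 and -2.63 on the others. Vil1, an intestinal brush border gene, was at 2.72 and 1.82 on Sham arrays 1 and 2 and between -3.21 and -1.33 on the others. Not all of the 4 intestinal epithelial markers examined had this pattern. Fabp2 was at -0.18, -1.30 and -1.07 in Sham and at -0.02, -0.06 and -0.74 in DJB, a difference of 0.58 (SE 0.34). Cdh17 was above background on no array. Whether epithelial tissue took part in the Ccl28 values was not tested. Ccl27a, a skin chemokine whose probe also matches its copy Ccl27b, differed by -0.35 (SE 0.15, adjusted p = 0.181).

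The homeostatic CXC ligands were not called in limma, although 3 of 4 had an unadjusted p under 0.05, beside 5584 of all 15703 named genes. Cxcl12, the stromal ligand of CXCR4 that retains leukocytes and progenitors in tissues, was at 6.01, 5.76 and 5.86 in Sham and at 5.28, 5.47 and 5.38 in DJB. The groups were narrowly spread and did not overlap, with a difference of -0.50 (SE 0.12, adjusted p = 0.0648), but a second Cxcl12 probe gave 0.06 (SE 0.34). A further Cxcl12 probe, of the set described below, gave -0.52 (SE 0.11, adjusted p = 0.0517) without overlap. Cxcr4 was at 1.40, 1.43 and 1.90 in Sham and at 2.13, 1.88 and 2.25 in DJB, so that 1 DJB value fell just below the highest Sham value, and it differed by 0.51 (SE 0.18, adjusted p = 0.136). Cxcl14, expressed in many epithelia and in adipose tissue, differed by 0.72 (SE 0.22, adjusted p = 0.106) without overlap.

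The remaining receptors that were tested, Ccr9 of gut-homing lymphocytes and Ccr10 of skin- and mucosa-homing lymphocytes, each differed by 0.29, with adjusted p-values of 0.287 and 0.391. Ccl17, a ligand of the T cell receptor CCR4, differed by -0.48 (SE 0.55) and Ccl20, the ligand of CCR6, by -0.04 (SE 0.33). For 8 genes the symbol-named probe was not tested. With these probes, Ccl22, Cxcl11, Cxcl15, Cxcl17 and Cxcr1 were not well above background on any array. Ccr4 was above it on 2 Sham arrays and no DJB array and was at least 1.11-fold higher in Sham, where the DJB side is set at the higher of the probe's own signal and the lowest signal above background on each array. Ccr8 was above background on 1 Sham array and Cxcl3 on 1 DJB array, and neither gave a bound above 1.

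A second set of probes measured many of the same transcripts, and was named in the files by a transcript accession in place of a symbol. These probes were matched here to genes whose symbol-named probes carried the same accession. They were examined after the data had been seen. Such a probe was found for 49 of the 56 genes, and both probes were tested for 41, of which 40 had the same sign. Ccl6 gave 1.08 (adjusted p = 0.043), Ccl9 0.96 (adjusted p = 0.0455) and Ccl3 1.24 (adjusted p = 0.0489), and these 3 were called higher again. Xcl1 gave -1.12 (adjusted p = 0.0345) and Ackr4 -1.65 (adjusted p = 0.0354), and both were called lower again. These 5 genes were called by both probes.

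The other 3 calls were not repeated by the accession-named probes. Ccl2 gave 0.67 (SE 0.19, adjusted p = 0.0874) and Ccr1 1.52 (SE 0.44, adjusted p = 0.0921), both without overlap between the groups. Ccl24 gave -0.50 (SE 0.11, adjusted p = 0.0598), a smaller difference than that of the symbol-named probe (-1.21). Cxcl9 was called lower by its accession-named probe (-1.10, SE 0.18, adjusted p = 0.0361), while Ccr10 changed sign, from 0.29 to -0.77 (SE 0.18, adjusted p = 0.0617). Of the 8 genes not tested by symbol, Ccl22, a macrophage and dendritic cell ligand of CCR4, was above background on all 6 arrays with this probe and differed by -0.92 (SE 0.24, adjusted p = 0.0771). Cxcr1, the second neutrophil receptor, differed by 0.55 (SE 0.18, adjusted p = 0.117) and did not overlap. Ccr8 gave 0.29 (SE 0.19, adjusted p = 0.366), with all DJB arrays above all Sham arrays, while Ccr4 gave -0.92 (SE 0.44, adjusted p = 0.226) and Cxcl3 1.83 (SE 1.03, adjusted p = 0.294), both with overlap. The accession-named probes of Cxcl17 and Cxcl15 were above background on 2 and 1 of the 6 arrays and were not tested.

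**Figure D4:**
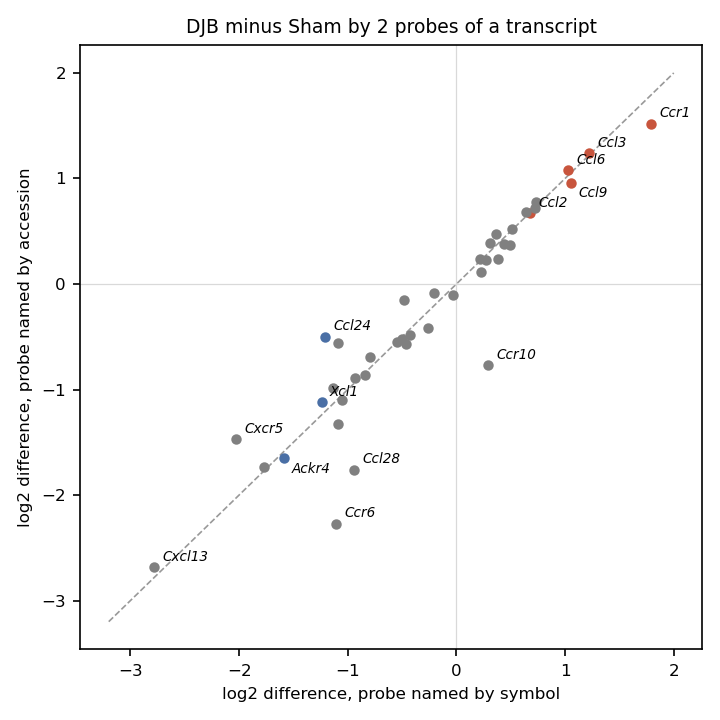
Log2 difference, DJB minus Sham, of the probe named by symbol (horizontal axis) and of the accession-named probe (vertical axis) for genes with both tested (red, called higher, and blue, called lower, by the symbol-named probe). Of the 41 genes, 40 lie in the quadrants of equal sign, the exception being Ccr10, and Ccl24 and Ccr6 lie away from the dashed line of equal differences.

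Other genes of the chemokine pathway, whose symbols the rule does not match, were taken from a list of 56 tested genes. Of these, 4 rose, 1 fell, and 40 differences were positive, with a median of 0.40 beside 0.05 over all named genes. Among all 15703 named genes tested, 2.16% were called higher and 4.81% lower, and 8637 differences were positive. Among 27 genes of receptor signalling and desensitisation, Itgb2, the beta 2 integrin subunit that chemokines activate for leukocyte arrest, rose by 1.32 (SE 0.16, adjusted p = 0.0231) and Pik3r5, the adaptor of phosphoinositide 3-kinase gamma, by 1.05 (SE 0.15, adjusted p = 0.0286). Adrbk2, a kinase that desensitises G protein-coupled receptors, fell by 0.94 (SE 0.13, adjusted p = 0.028). Among 8 genes of chemokine processing and presentation, Mmp12, the macrophage elastase that cleaves chemokines, was at 4.85, 5.63 and 5.39 in Sham and at 6.84, 6.88 and 7.03 in DJB. It rose by 1.63 (SE 0.21, adjusted p = 0.0261), and Sdc1, a heparan sulfate proteoglycan that binds chemokines, by 1.06 (SE 0.14, adjusted p = 0.0274). When slide was added as a block, 1 of the 4 rises and not the fall passed the threshold.

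Dpp4, the protease that trims CXCL10 and CXCL12, differed by -0.95 (SE 0.23, adjusted p = 0.0664). Of 11 transcriptional inducers of chemokines, such as subunits of NF-kB and interferon regulatory factors, none was called in limma, 5 had an unadjusted p under 0.05, and the median difference was 0.32. Rela, the p65 subunit of NF-kB, differed by 0.39 (SE 0.11, adjusted p = 0.0926) and Irf1, an inducer of Cxcl9 and Cxcl10, by -0.21 (SE 0.11, adjusted p = 0.258). Of 10 further chemokines and receptors, such as Pf4, Mif and the chemerin genes, none was called in limma and 3 had an unadjusted p under 0.05. For both lists, the share to set beside these counts was 5584 of all 15703 named genes tested. Pf4 (platelet factor 4) differed by 0.12 (SE 0.24) and Mif (macrophage migration inhibitory factor) by 0.38 (SE 0.12, adjusted p = 0.109).

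The calls of the 8 genes changed when 1 array was left out, and so did the calls over all tested probes. These numbered 4967 with all 6 arrays. With 1 array left out they numbered between 119 (without Sham array 1) and 3971 (without DJB array 3). Without Sham array 1 or without DJB array 2 no chemokine or receptor passed the threshold in limma. Without Sham array 2 Ackr4 alone was called, and without DJB array 1 Xcl1 alone. Without Sham array 3 Ccl9, Xcl1 and Ackr4 were called, and without DJB array 3 Ccl9, Ccl3, Xcl1, Ackr4 and Cxcl13. The direction of the 8 genes was the same in all 6 such fits, with Ccl9 between 0.98 and 1.10 and Ccr1 between 1.56 and 2.12.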

How the data were processed

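RNA from abdominal fat was hybridised to 1-colour Agilent arrays, 3 Sham and 3 DJB, after mirVana extraction and low-input whole-transcript labelling, per the labels' protocols. Each deposited scanner file gives a processed intensity per spot that was background-subtracted and detrended by Agilent Feature Extraction 12.0.3.1, per the file headers, without scaling between arrays. A value table on the log2 scale, deposited by the authors as well, was used as an alternative. Its columns correlated best with their own arrays, their medians lay between 4.546 and 4.558, as after quantile normalization, and genes were not centred. The submitters' processing notes name limma, with no role. The series' design text describes another experiment and was not used.

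Of 150305 non-control probes, 99431 were well above background on at least 3 of 6 arrays and were tested. Outlier-flagged spots, between 18 and 25 on an array, were left out, and saturation was not flagged for any tested spot. The log2 processed signal minus each array's 75th percentile over non-control probes was compared with limma 3.58.1 in R 4.3.3 (lmFit and eBayes, two-sided, no covariates), with tables read by data.table (version 1.17.8). Lists and plots were made in Python 3.11.15 using matplotlib 3.10.9, pandas 2.3.3 and numpy 2.4.6. The fit was first tested on simulated data. The precision is limited by the 6 arrays. Named genes were those called, those with a difference of at least 1 log2 unit and no overlap between groups, and a list of the best known members, and other members were given by role. The genes and lists were chosen with earlier results of these data known. Correlations of the residuals of same-numbered arrays were -0.185, -0.117 and -0.295. They gave no sign that replicate numbers pair the arrays, but cannot exclude it. The residuals were centred within groups of 3 arrays, and slide did not follow the numbers. Sham array 2 and DJB array 3, both on slide 2, correlated at 0.245. Some values are not reported here, although the counts include them.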

Additional observations from a re-analysis of the deposited data

How the results depend on the processing

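The 8 called genes kept their direction under every alternative run. Counts of calls moved more. The rises, 5 in the reported fit, were 1 without the background filter, 3 with accession-named probes (chosen after seeing the data), 0 with the slide as a block and 0 to 2 when 1 array was left out. The falls, 3 as reported, were 8 with normexp background correction, 5 with a trended robust prior, 0 without the background filter, 0 with the slide block and 0 to 3 when 1 array was left out. For the other pathway genes, the 4 rises became 11 with normexp, 16 with the trended prior, 7 among probes above background on all 6 arrays, 0 without the filter, 1 with the slide block and 0 to 5 when 1 array was left out. The 1 fall became 3 with normexp, 3 with the trended prior, 3 above background on all 6 arrays, 2 with the 75th percentile over detected probes, 2 with quantile normalization, 2 in the authors' table, 0 without the filter, 0 with the slide block, 0 with the mean of a gene's probes and 0 to 1 when 1 array was left out. With the replicate number as a block, no chemokine, receptor or other pathway gene was called (0 rises and 0 falls). The check of pairing could not settle whether such a block applies. The cause of these changes was not tested. Leaving out 1 array changes both the number of arrays and which arrays are compared. Ccr2, at -0.26, ranged from -0.62 to 0.20 when 1 array was left out, the positive value being without DJB array 1. The median difference of all tested probes was 0.08 as reported and 0.19 with scaling to the median. For genes with low signal the size of the difference depends on the background correction: with normexp Ccr1 went from 1.79 to 0.54, Ackr4 from -1.59 to -0.49, Xcl1 from -1.24 to -0.46 and Cxcr2 from 2.36 to 0.64.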
